A study of Mus musculus with 48 samples.

Results

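The genes described here are 10 enzymes of bile acid synthesis and conjugation, out of 55416 genes counted in mouse liver. They were chosen by name, as the main steps that turn cholesterol into conjugated bile acids, and all 10 passed the filter on low counts. The livers came from 2 studies of LXRα, the nuclear receptor encoded by Nr1h3 that senses oxysterols and that in mouse liver is known to induce Cyp7a1. In the knock-in study, mice carried 0, 1 or 2 copies of the dominant-negative W441R allele (DN:WT, DN:HET and DN:HOM), and in the knockout study they carried 0, 1 or 2 copies of a null allele (KO:WT, KO:HET and KO:HOM), with 8 livers in each of the 6 groups. The strain of all mice is given as C57Bl/6J, and all were placed at about 8 weeks of age on a western diet, rich in fat, sugar and cholesterol, for 8 weeks. Per the study's methods, the knock-in mice were male littermates bred from a line made with CRISPR-Cas9 from 1 founder, and the knockout line was backcrossed to C57BL/6 and kept at another institute. Study, institute and line can therefore not be told apart in any comparison between the studies.

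Bile acids are made in hepatocytes from cholesterol. In the classic route Cyp7a1 hydroxylates cholesterol and sets the rate, and Cyp8b1 adds the hydroxyl group that makes cholic acid and so sets the ratio of cholic acid to the other primary bile acids. In the alternative route Cyp27a1 oxidises the side chain in mitochondria and Cyp7b1 hydroxylates the oxysterol formed. Hsd3b7 and Akr1d1 then change the steroid ring, Amacr and Acox2 prepare the side chain for shortening in peroxisomes, Slc27a5 links bile acids to coenzyme A, and Baat joins them to taurine or glycine. Bile acids hold their own synthesis back through the receptor FXR, encoded by Nr1h4, and its target Nr0b2.

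Promoter sequence is shown for the 3 members with a RefSeq entry that fell by more than 1 on the log2 scale in DN:HOM livers, because nuclear receptors bind near such starts. RefSeq promoters in the GRCm38.p6 build matched 5 of the 10 members (Cyp8b1, Akr1d1, Cyp27a1, Hsd3b7 and Acox2). Each line gives the 250 bases before the transcription start, 5′ to 3′ in the gene's direction, and capitals mark bases that match a searched motif. Cyp8b1 lies at chr9:121916306-121916555 on the minus strand, Akr1d1 at chr6:37529923-37530172 on the plus strand and Cyp27a1 at chr1:74713285-74713534 on the plus strand.
Cyp8b1: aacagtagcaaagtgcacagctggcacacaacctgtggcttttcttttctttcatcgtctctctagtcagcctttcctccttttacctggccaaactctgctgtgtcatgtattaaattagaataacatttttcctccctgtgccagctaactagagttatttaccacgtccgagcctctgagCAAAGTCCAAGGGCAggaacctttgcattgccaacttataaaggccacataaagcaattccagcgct
Akr1d1: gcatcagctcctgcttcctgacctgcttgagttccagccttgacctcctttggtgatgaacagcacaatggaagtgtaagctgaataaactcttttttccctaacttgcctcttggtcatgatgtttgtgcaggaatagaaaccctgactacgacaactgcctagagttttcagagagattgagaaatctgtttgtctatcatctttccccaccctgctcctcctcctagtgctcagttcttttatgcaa
Cyp27a1: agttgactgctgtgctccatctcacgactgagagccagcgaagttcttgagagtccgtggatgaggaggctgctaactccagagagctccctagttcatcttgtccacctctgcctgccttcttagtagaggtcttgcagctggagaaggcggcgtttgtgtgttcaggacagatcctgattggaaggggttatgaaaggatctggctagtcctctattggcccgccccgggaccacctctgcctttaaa

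Motifs of 3 kinds were searched on both strands of these windows. The motif CAAAGTCCA, bound by the hepatocyte receptor HNF4A, matched Cyp8b1 from base 67 to base 59 before the start, and 0.384% of all 32851 RefSeq windows of 250 bases held it. The motif CAAGGNCA, bound by the receptor NR5A2, matched Cyp8b1 from base 60 to base 53 on the same strand, so that it overlaps the former match, and 5.53% of windows held it. A pair of AGGTCA sequences with 4 bases between them, the element named DR4 that LXR binds with its partner RXR, occurred in 0.0152% of windows. None of these letters was found in the windows of the other 4 members, and the DR4 pair was not found in that of Cyp8b1. A match describes letters only.

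Reads on genes ranged from 5332897 to 16961379 per liver (median 15879971), and 2 livers, KO:HET animal 3 and KO:HOM animal 17, had fewer than 10000000. Levels are given as reads per 1000000 reads on genes after TMM scaling, called scaled CPM here. Nr1h3, the targeted gene, was at 93.5 ± 8.82 scaled CPM in KO:WT livers (SD, n = 8), 59.2 ± 5.63 in KO:HET livers (n = 8) and 27 ± 1.99 in KO:HOM livers (n = 8). In the knock-in, which changes 1 amino acid, it was at 91.7 ± 5.04 in DN:WT livers (n = 7), 92.7 ± 4.58 in DN:HET livers (n = 8) and 72.7 ± 3.56 in DN:HOM livers (n = 7). The study's own bile acid gene data leave out the libraries labelled DN:WT animal 10 and DN:HOM animal 12, without a stated reason, and results rest on the other 46 livers and are also given over all 48. The library labelled DN:WT animal 10 lay within the DN:HOM range for 9 of the 10 members and within the range of the other DN:WT livers for 0. The library labelled DN:HOM animal 12 lay within the DN:WT range for 8 members and within the range of the other DN:HOM livers for 2. Nothing in the labels says that livers of a group are other than separate animals. The study's reporting summary states that these mouse experiments were split into 2 cohorts. The labels name no cohort, and no fit accounts for it.

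**Figure D1:**
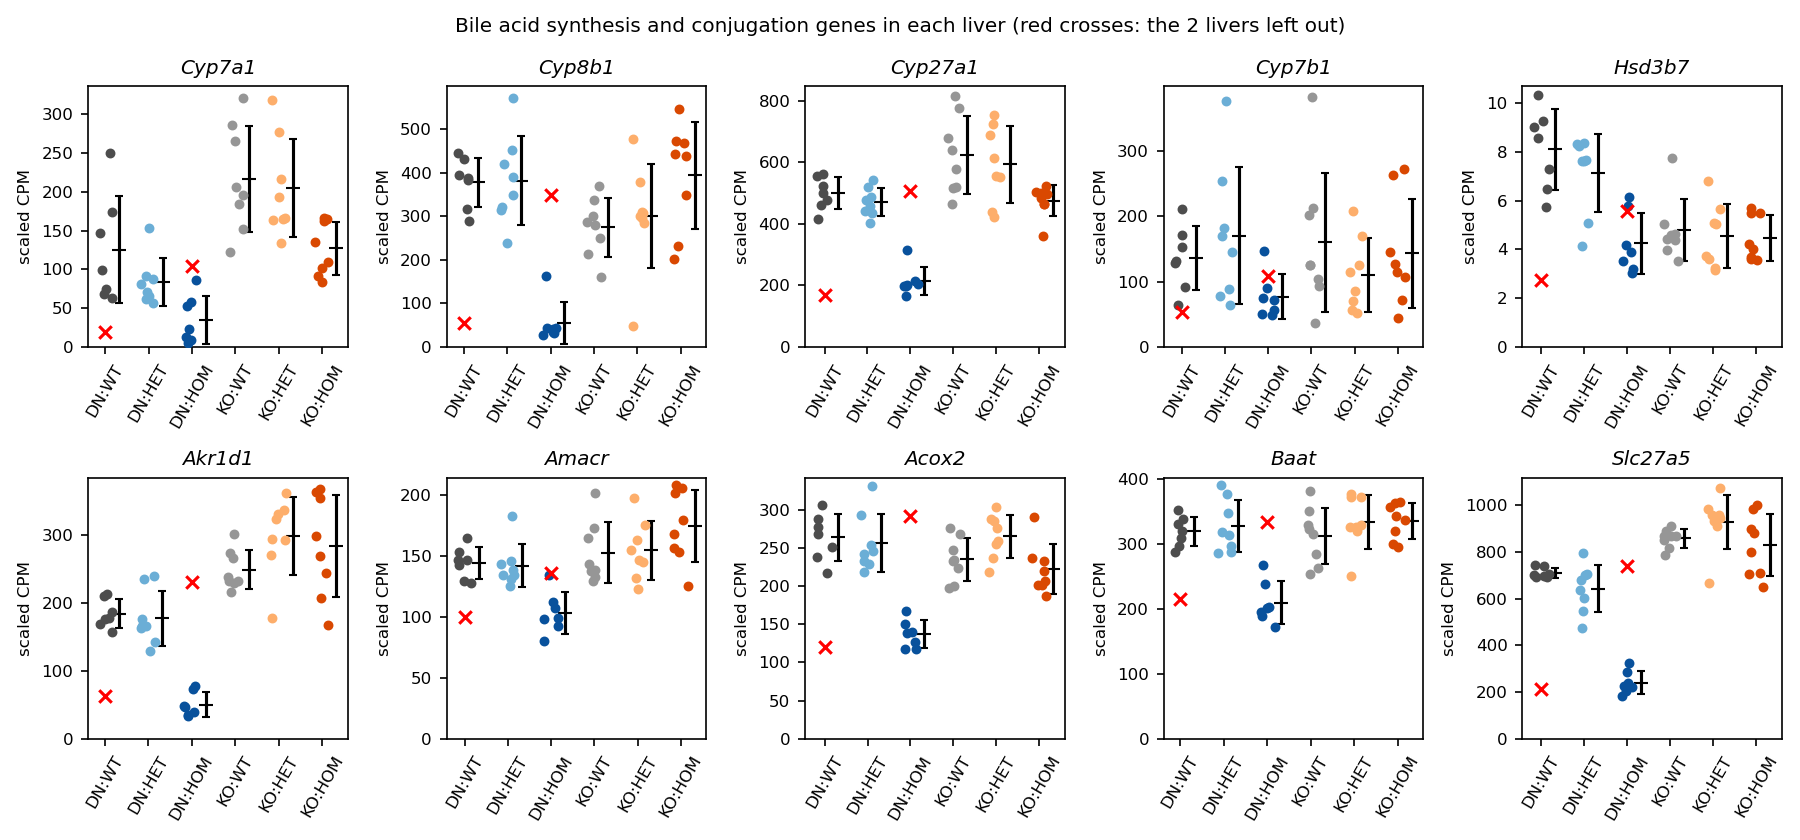
Scaled CPM (y axis, from 0) of each of the 10 genes in each liver by group, with the mean and SD of the livers used beside the points. Red crosses are the libraries labelled DN:WT animal 10 and DN:HOM animal 12, and Cyp8b1 in DN:HOM livers lies between 26.8 and 162 scaled CPM against 289 to 444 in DN:WT livers.

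In livers homozygous for the dominant-negative allele, 9 of the 10 enzymes fell and none rose. The largest change was in Cyp8b1 at 6.84-fold lower, and Akr1d1 at 3.64-fold, Cyp7a1 at 3.51-fold and Slc27a5 at 2.94-fold came next, with the order of Akr1d1 and Cyp7a1 turned over all 48 livers and without DN:HOM animal 33. Cyp7b1 did not pass the test. Calls were made with edgeR's quasi-likelihood test at an adjusted p of 0.05, and 30% of the 15711 genes tested were called lower in the same comparison. The median log2 fold change was -1.07 over the members and -0.01 over all genes. Over all 48 livers 9 members were called lower again, against 25.0% of genes, with a median of -0.81. Among the 46 livers, every DN:HOM liver lay below every DN:WT liver for 6 members (Cyp8b1, Cyp27a1, Akr1d1, Acox2, Baat and Slc27a5), against 15.8% of genes tested. With the libraries labelled DN:WT animal 10 and DN:HOM animal 12 included, the groups overlapped for each of these 6. In whole liver, fewer hepatocytes and less RNA per hepatocyte cannot be told apart.

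Of the classic route, Cyp7a1 (ENSMUSG00000028240, GRCm39 chr4:6265612-6275633, minus strand) lay between 63.7 and 250 scaled CPM in DN:WT livers, with a median of 99.5. In DN:HOM livers it lay between 5.46 and 86.9, with a median of 22.6. Both groups overlap, and the spread was wide in each, as 4 DN:HOM livers were below 25 and the other 3 above 50. The log2 fold change was -1.81 ± 0.38 (SE) with an adjusted p of 6.22e-05 by edgeR, and -1.35 with 0.00504 over all 48 livers.

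Cyp8b1 (ENSMUSG00000050445, chr9:121743422-121745371, minus strand), which sets the cholic acid share and whose promoter is printed above, was between 289 and 444 scaled CPM in DN:WT livers (median 387). In DN:HOM livers it was between 26.8 and 162 (median 40.5). Of the 7 DN:HOM livers, 6 lay at or below 43.3 and 1, animal 33, at 162, and the groups do not overlap. The log2 fold change was -2.77 ± 0.33 (SE, adjusted p = 9.8e-10, edgeR) and -1.89 ± 0.41 over all 48 livers (adjusted p = 0.000308). Without animal 33 it was -3.36 ± 0.29.

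In the alternative route, Cyp27a1 (ENSMUSG00000026170, chr1:74752314-74777056, plus strand) was between 416 and 563 scaled CPM in DN:WT livers (median 501) and between 167 and 314 in DN:HOM livers (median 202). It fell by 1.21 ± 0.13 (SE) on the log2 scale (adjusted p = 6.02e-11, edgeR) and by 0.87 over 48 livers. Its exons share 1088 bases with Prkag3 on the opposite strand, and counts were stranded. Cyp7b1 (ENSMUSG00000039519, chr3:18117411-18297740, minus strand) ranged from 64.1 to 211 in DN:WT livers (median 132) and from 49.5 to 147 in DN:HOM livers (median 72.7). The log2 fold change of Cyp7b1 was -0.81 ± 0.40 (SE) with an adjusted p of 0.0805 by edgeR, which missed the threshold, and the groups overlap. Without DN:HOM animal 33 it was -1.06 ± 0.41 with an adjusted p of 0.0264.

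Of the ring enzymes, Akr1d1 (ENSMUSG00000038641, chr6:37506822-37545751, plus strand), the reductase that gives bile acids their bent ring, was between 157 and 213 scaled CPM in DN:WT livers (median 177). In DN:HOM livers it lay between 33.6 and 76.9 (median 46), with no overlap. It fell by 1.86 ± 0.17 (SE) on the log2 scale (adjusted p = 2.4e-12, edgeR) and by 1.22 over 48 livers. Hsd3b7 (ENSMUSG00000042289, chr7:127399597-127402989, plus strand), the dehydrogenase of the ring, was low at 5.72 to 10.3 scaled CPM in DN:WT livers (median 8.58) and 3.02 to 6.17 in DN:HOM livers (median 3.88). The groups overlap slightly. Its fall was 0.91 ± 0.18 (SE, adjusted p = 3.96e-05, edgeR) on the log2 scale. The level of Hsd3b7 is uncertain, since 1717 of its 3263 exon bases are shared with Gm49388 on the same strand and 2208 with 9430064I24Rik on the other, and when strands were counted together it did not pass the filter on low counts.

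Among the side chain enzymes, Acox2 (ENSMUSG00000021751, chr14:14210395-14244262, plus strand), the oxidase that opens side chain shortening, was between 218 and 307 scaled CPM in DN:WT livers (median 268) and between 117 and 168 in DN:HOM livers (median 138). It fell by 0.94 ± 0.10 (SE) on the log2 scale (adjusted p = 8.57e-11, edgeR). Amacr (ENSMUSG00000022244, chr15:10981827-10996712, plus strand), the racemase of the same pathway, changed least, from a median of 146 (range 127 to 165) to 98.5 (range 80.3 to 134). Its fall was 0.47 ± 0.11 (SE, adjusted p = 0.000357, edgeR), and the groups overlap through animal 33.

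Both conjugation genes were lower in every DN:HOM liver than in any DN:WT liver. Slc27a5 (ENSMUSG00000030382, chr7:12722273-12732137, minus strand), the bile acid to coenzyme A ligase, was within 693 to 745 scaled CPM in the 7 DN:WT livers, the narrowest spread among the members relative to its mean, and within 180 to 323 in DN:HOM livers. It fell by 1.56 ± 0.11 (SE) on the log2 scale (adjusted p = 5.78e-16, edgeR), and by 1.10 over 48 livers (adjusted p = 4.52e-05). Baat (ENSMUSG00000039653, chr4:49489289-49506563, minus strand), the transferase that joins taurine or glycine, was between 288 and 352 in DN:WT livers and between 172 and 268 in DN:HOM livers. It fell by 0.59 ± 0.09 (SE, adjusted p = 5.87e-07, edgeR).

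The size of the smaller falls depends on scaling. When libraries were scaled by their total alone, the median log2 fold change of all genes in this comparison was 0.42 rather than -0.01, and 7 of the 10 members were called. Shares of all genes called are not given for this scaling, here or below. Amacr was then at -0.05 (adjusted p = 0.718) and Baat at -0.17 (adjusted p = 0.0742), below the median of all genes in both cases.

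**Figure D2:**
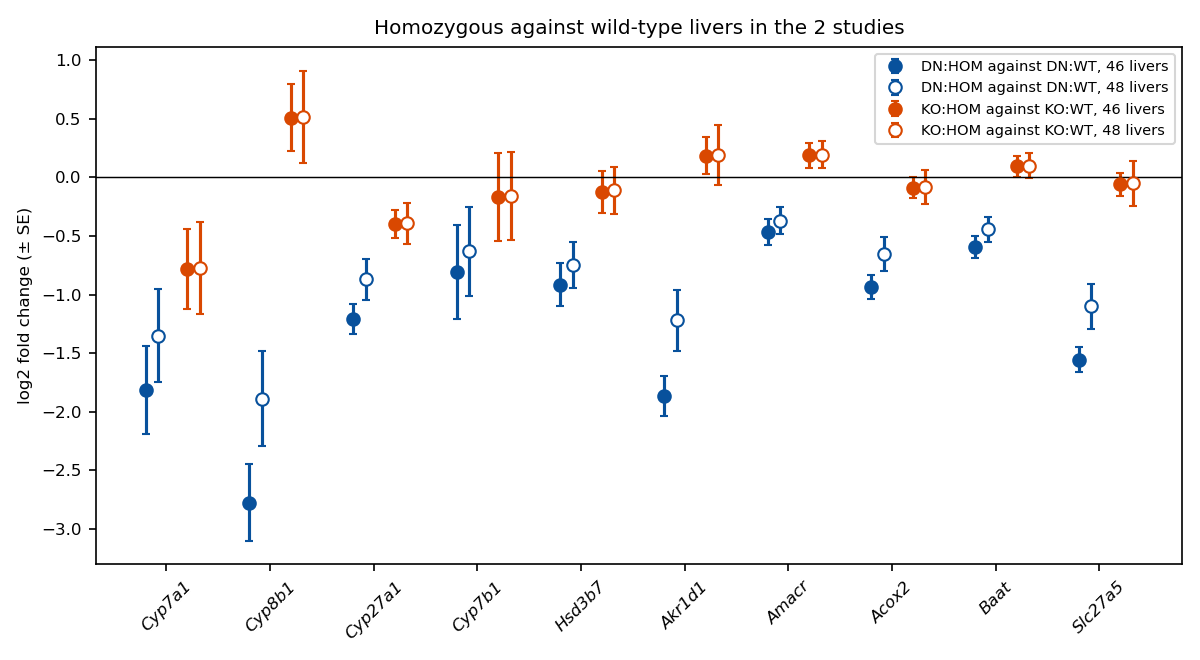
Log2 fold change with its SE (y axis) of each gene between homozygous and wild-type livers, in the knock-in (blue) and knockout study (orange), over 46 livers (filled) and over all 48 (open). The 10 knock-in values lie between -2.77 and -0.47 over 46 livers and the 10 knockout values between -0.78 and 0.51.

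Loss of LXRα gave another picture. Of the 10 members 1, Cyp27a1, was called lower in KO:HOM livers and 0 higher, against 7.87% of genes called lower. The median of the members was -0.07, beside -0.02 over all genes. Cyp27a1 was between 466 and 816 scaled CPM in KO:WT livers (median 611) and between 360 and 524 in KO:HOM livers (median 491), with overlap. Its log2 fold change was -0.40 ± 0.12 (SE) with an adjusted p of 0.012 by edgeR. With libraries scaled by their total alone it was -0.28, with an adjusted p of 0.063. Over all 48 livers, a fit that holds the same knockout livers, it was -0.39 with an adjusted p of 0.14, and 0 members were called, against 4.12% of genes. In that fit 1 member had an unadjusted p under 0.05, and DESeq2 over 46 livers called 1.

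Cyp7a1 was between 123 and 321 scaled CPM in KO:WT livers (median 201) and between 83.4 and 167 in KO:HOM livers (median 122). Its log2 fold change was -0.78 ± 0.34 (SE) with an adjusted p of 0.105 by edgeR, and with the knockout study fitted alone -0.77 ± 0.20 with 0.008. Cyp8b1 was between 159 and 370 in KO:WT livers (median 282) and between 202 and 545 in KO:HOM livers (median 440). Of 8 KO:HOM livers, 6 lay above the KO:WT mean of 274, and the log2 fold change of 0.51 ± 0.29 (SE) missed the threshold (adjusted p = 0.219, edgeR).

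The other 7 members moved little in the knockout. Their log2 fold changes lay between -0.17 for Cyp7b1 and 0.19 for Amacr, and their adjusted p-values between 0.213 and 0.8 by edgeR. For Slc27a5 the estimate of -0.06 had a 95% interval from -0.25 to 0.14, and for Baat the estimate of 0.09 had one from -0.08 to 0.26. For Cyp7b1 it ran from -0.90 to 0.56, so that this gene was measured far less closely. Akr1d1 was at 0.18 (interval -0.12 to 0.49), Hsd3b7 at -0.12 and Acox2 at -0.09.

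Whether the homozygous effect differed between the studies was tested as the knock-in effect minus the knockout effect. This difference was negative for all 10 members and passed the test for 8, against 18.3% of genes called lower. Cyp8b1 had the largest value at -3.28 ± 0.43 (SE, adjusted p = 7.24e-08, edgeR), or -3.88 ± 0.36 without DN:HOM animal 33, followed by Akr1d1 at -2.05 (adjusted p = 3.17e-09) and Slc27a5 at -1.50 (adjusted p = 8.62e-11). Acox2, Cyp27a1, Hsd3b7, Baat and Amacr lay between -0.85 and -0.66. Cyp7a1, at -1.03 ± 0.50 (adjusted p = 0.106), and Cyp7b1, at -0.64 ± 0.55 (adjusted p = 0.39), were not shown to differ between studies. With libraries scaled by their total alone the median of this difference over all genes was 0.31, and 6 members were called. Amacr (-0.34, adjusted p = 0.0505, edgeR) and Hsd3b7 (-0.47, adjusted p = 0.127, edgeR) were not. Without DN:HOM animal 33 the difference for Cyp7a1 was -1.45 with an adjusted p of 0.016.

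Over all 48 livers 5 members differed between the studies, against 6.42% of genes. They were Cyp8b1 (-2.41, adjusted p = 0.00777), Akr1d1 (-1.41, 0.0134), Slc27a5 (-1.05, 0.0137), Baat (-0.54, 0.0184) and Amacr (-0.56, 0.0201), by edgeR. Acox2, Hsd3b7 and Cyp27a1 were no longer called, with adjusted p-values of 0.0566, 0.135 and 0.205.

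One copy of either allele changed none of the 10 genes by this test. In DN:HET livers edgeR called 0 members, against 2.30% of genes, with 0 at an unadjusted p under 0.05 and 0 by DESeq2. Log2 fold changes lay between -0.59 for Cyp7a1 (interval -1.28 to 0.10) and 0.32 for Cyp7b1. Cyp8b1 was 381 ± 101 scaled CPM in DN:HET livers (SD, n = 8) beside 378 ± 56.5 in DN:WT livers (n = 7), and Slc27a5 was 643 ± 102 beside 711 ± 21.7.

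In KO:HET livers edgeR also called 0 members, against 0.0191% of genes, with 0 at an unadjusted p under 0.05 and 0 by DESeq2, and log2 fold changes lay between -0.55 for Cyp7b1 and 0.26 for Akr1d1. One liver of this group, animal 9, had Cyp8b1 at 49.1 scaled CPM where the other 7 lay between 284 and 476. In the same liver Slc27a5 (667), Akr1d1 (177), Baat (250), Amacr (123) and Hsd3b7 (3.17) were the lowest of the group, while Cyp7a1 (167) lay within it.

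Wild-type livers of both studies differed in 1 member by edgeR and in 2 by DESeq2. Hsd3b7 was 4.79 ± 1.28 scaled CPM in KO:WT livers (SD, n = 8) and 8.10 ± 1.65 in DN:WT livers (n = 7), with a log2 fold change of -0.75 ± 0.18 (SE, adjusted p = 0.0036, edgeR), against 5.54% of genes called lower. Over 48 livers it was -0.63 (adjusted p = 0.0302), against 6.51%. Cyp7a1 had means of 217 ± 68.2 in KO:WT and 125 ± 69.1 in DN:WT livers, a log2 difference of 0.80 that missed the threshold (adjusted p = 0.146, edgeR). Akr1d1 (216 to 301 beside 157 to 213) and Slc27a5 (787 to 913 beside 693 to 745) lay higher in every KO:WT than in any DN:WT liver. Their log2 differences of 0.44 and 0.28 missed the threshold by edgeR (adjusted p = 0.0694 and 0.0645). The share of all genes that lay higher in every KO:WT than in any DN:WT liver is not given.

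Levels between genes were compared per length, taken as all annotated exons of a gene together. A gene whose transcripts in liver are shorter than this would be placed too low, and which transcripts were present was not examined. Cyp7b1 had the longest such length, at 11786 bases. Reads on the 1717 bases that Hsd3b7 shares with Gm49388 on its strand may not be counted for it. In DN:WT livers the mean scaled CPM per kilobase of exon was highest for Slc27a5 at 250 ± 7.61 (SD, n = 7), then Cyp8b1 at 194 ± 28.9, Cyp27a1 at 150 ± 15.8, Baat at 146 ± 10.5, Acox2 at 66.2 ± 7.64 and Akr1d1 at 40.0 ± 4.50. Cyp7a1 at 30.1 ± 16.6, Amacr at 22.6 ± 2.05, Cyp7b1 at 11.6 ± 4.16 and Hsd3b7 at 2.48 ± 0.51 followed. Cyp27a1 and Baat lay within their spread of each other, and so did Cyp7a1 and its neighbours Akr1d1 and Amacr. In DN:HOM livers the order was headed by Baat at 96 ± 15, Slc27a5 at 84.1 ± 17.3 and Cyp27a1 at 64.5 ± 14, and Cyp8b1 stood at 28 ± 24.5, beside Acox2 at 34.3 ± 4.62.

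Among the 7 DN:HOM livers, animal 33 had the highest value of 8 of the 10 members. Its Cyp8b1 was 162 scaled CPM where the next highest was 43.3, its Cyp27a1 314 where the next was 214, and its Cyp7b1 147 where the next was 90.2. The exceptions were Akr1d1, highest in animal 19, and Hsd3b7, highest in animal 31. For Cyp8b1, Cyp27a1, Akr1d1, Acox2, Baat and Slc27a5 it was still below every DN:WT liver.

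**Figure D3:**
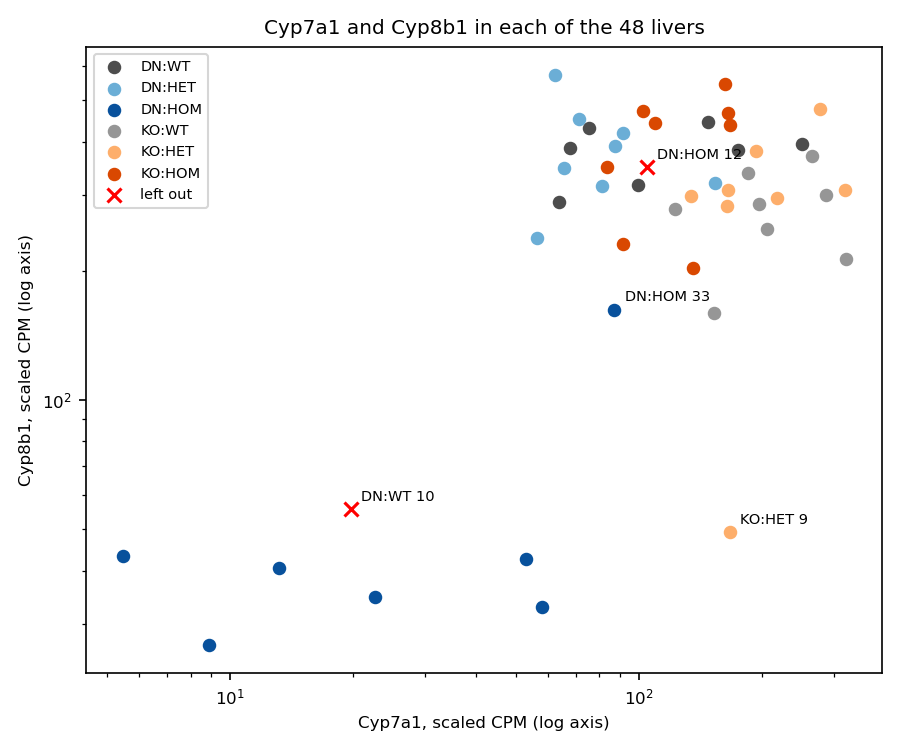
Cyp7a1 (x axis) against Cyp8b1 (y axis), both in scaled CPM on log axes, with 1 point per liver coloured by group. The 6 lowest DN:HOM livers and the library labelled DN:WT animal 10 lie below 60 for Cyp8b1 at a Cyp7a1 below 60, while KO:HET animal 9 has Cyp8b1 at 49.1 and Cyp7a1 at 167.

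How members varied within groups was described by Pearson's r of log2 CPM over the 46 livers after each group's mean was subtracted, with no test. Akr1d1 and Slc27a5 varied most alike (r = 0.84), then Cyp8b1 and Slc27a5 (0.73), Amacr and Baat (0.70), Cyp7b1 and Amacr (0.66) and Cyp8b1 and Akr1d1 (0.65). The hydroxylases within each route were less alike, with 0.33 for Cyp7a1 and Cyp8b1 and 0.29 for Cyp27a1 and Cyp7b1. The first enzymes of both routes, Cyp7a1 and Cyp27a1, had 0.20. Values of a liver share its library and its mix of cells.

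Of the 11716 genes compared in this way, those most like Cyp8b1 were Gcdh (r = 0.80), Pbld1 (0.79), Klhl7 (0.79) and Sugct (0.79). Those most like Cyp7a1 were Plpp3 (0.68), Cradd (0.65), Sult1b1 (0.63), Ttc39c (0.63) and Mpdz (0.63). Those most like Cyp7b1 were Mup11 (0.87), C8b (0.86), Mup14 (0.86), Ugt2b38 (0.85) and Serpina3k (0.85). Mup11 and Mup14 belong to a family of near-identical copies whose reads may be split between them.

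Cyp7b1, which missed the threshold in DN:HOM livers, is known to be higher in male liver, and a list of male-biased genes was therefore set beside it. Of 8 male-biased genes, 6 fell and 1 (Mup20) rose in DN:HOM livers, with a median log2 fold change of -1.81, and 3 fell in KO:HOM livers (0 over 48 livers, 1 with libraries scaled by their total alone), with a median of -0.58. Hsd3b5 was 126 ± 63.8 scaled CPM in DN:WT livers (SD, n = 7) and 2.18 ± 1.74 in DN:HOM livers (n = 7). Of 6 female-biased genes 1, Cyp2b9, passed the filter, and it fell too in DN:HOM livers (log2 fold change -4.22 ± 1.75, SE, adjusted p = 0.0356 by edgeR, and 0.3 over 48 livers). Xist lay between 0 and 0.48 scaled CPM in all 46 livers. The part of this in the Cyp7b1 values was not tested.

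Cyp7a1 also follows the daily rhythm, and the time of day at which livers were taken is not given in the sources used here. Of 13 clock genes tested, 5 fell in DN:HOM livers, namely Per2 (-0.87), Cry1 (-1.17), Cry2 (-0.56), Tef (-0.56) and Hlf (-0.90) on the log2 scale, and 0 rose, beside 30% of all genes tested called lower. With libraries scaled by their total alone 2 fell and 1 rose. Bmal1 (-0.76, adjusted p = 0.135), Dbp (-0.42, 0.383) and Nr1d2 (0.00, 0.998) did not pass the test by edgeR. In KO:HOM livers 0 of 13 were called by edgeR. Nr1d1, a clock gene counted here among the regulators, was called lower in both studies, by 0.57 in DN:HOM and 0.70 in KO:HOM livers, and in neither over 48 livers (adjusted p = 0.153 and 0.0538). Between the wild-type groups of both studies 11 of the 13 differed, 8 higher and 3 lower in KO:WT livers, with Per1 higher by 1.98 and Bmal1 at -2.22. The part of the clock genes in the Cyp7a1 values was not tested.

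Beyond the members, 14 further genes of the pathway were tested, and in DN:HOM livers 10 fell and 2 rose, with a median log2 fold change of -0.76. With libraries scaled by their total alone 7 fell and 2 rose. Those that fell included the peroxisomal importer Abcd3 (-1.39), the ligase Slc27a2 (-1.21), the thiolase Scp2 (-1.02) and the dehydrogenase Hsd17b4 (-1), and the thioesterase Acot8 fell by 0.35. The partners of mitochondrial Cyp27a1, the electron carrier Fdx1 and its reductase Fdxr, fell by 0.57 and 0.51. The hydroxylases Cyp2c70, which makes muricholic acids, and Cyp2a12, which hydroxylates secondary bile acids, fell by 1.53 and 0.95, and Cyp46a1, which hydroxylates cholesterol mainly in brain, fell by 2.44.

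The genes of this list that rose were Ch25h and Cyp39a1. Ch25h, the cholesterol hydroxylase of activated macrophages, was at 0.07 ± 0.08 scaled CPM in DN:WT livers (SD, n = 7) and 1.22 ± 0.39 in DN:HOM livers (n = 7). Its log2 fold change was 3.99 ± 0.62 (SE, adjusted p = 4.6e-07, edgeR), which rests on few reads in DN:WT livers. In the other groups its mean was at most 0.38, so that it passed the filter on low counts through the DN:HOM livers, where it is high. No support is therefore drawn from its call. Cyp39a1, an oxysterol hydroxylase, rose by 0.70 in DN:HOM livers (adjusted p = 0.026, edgeR), and over 48 livers this was 0.50 (adjusted p = 0.112).

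Of the 14 genes 4 fell in KO:HOM livers (2 over 48 livers) and 0 rose, with a median of -0.20, and with libraries scaled by their total alone 2 fell and 1 rose. Of all genes tested, 7.87% were called lower in this comparison (4.12% over 48 livers). Cyp39a1 fell from 19.2 ± 5.16 to 6.84 ± 3.77 scaled CPM (SD, n = 8 each), a log2 fold change of -1.48 (adjusted p = 5.84e-05, edgeR), and its effects in both studies differed by 2.18 ± 0.38 (SE, adjusted p = 1.35e-05). Cyp2c70 fell by 1.60 in the knockout, close to its fall of 1.53 in the knock-in, with a difference of 0.08 ± 0.33 (SE, adjusted p = 0.88, edgeR). The others were Slc27a2 (-0.33) and Scp2 (-0.27).

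**Figure D4:**
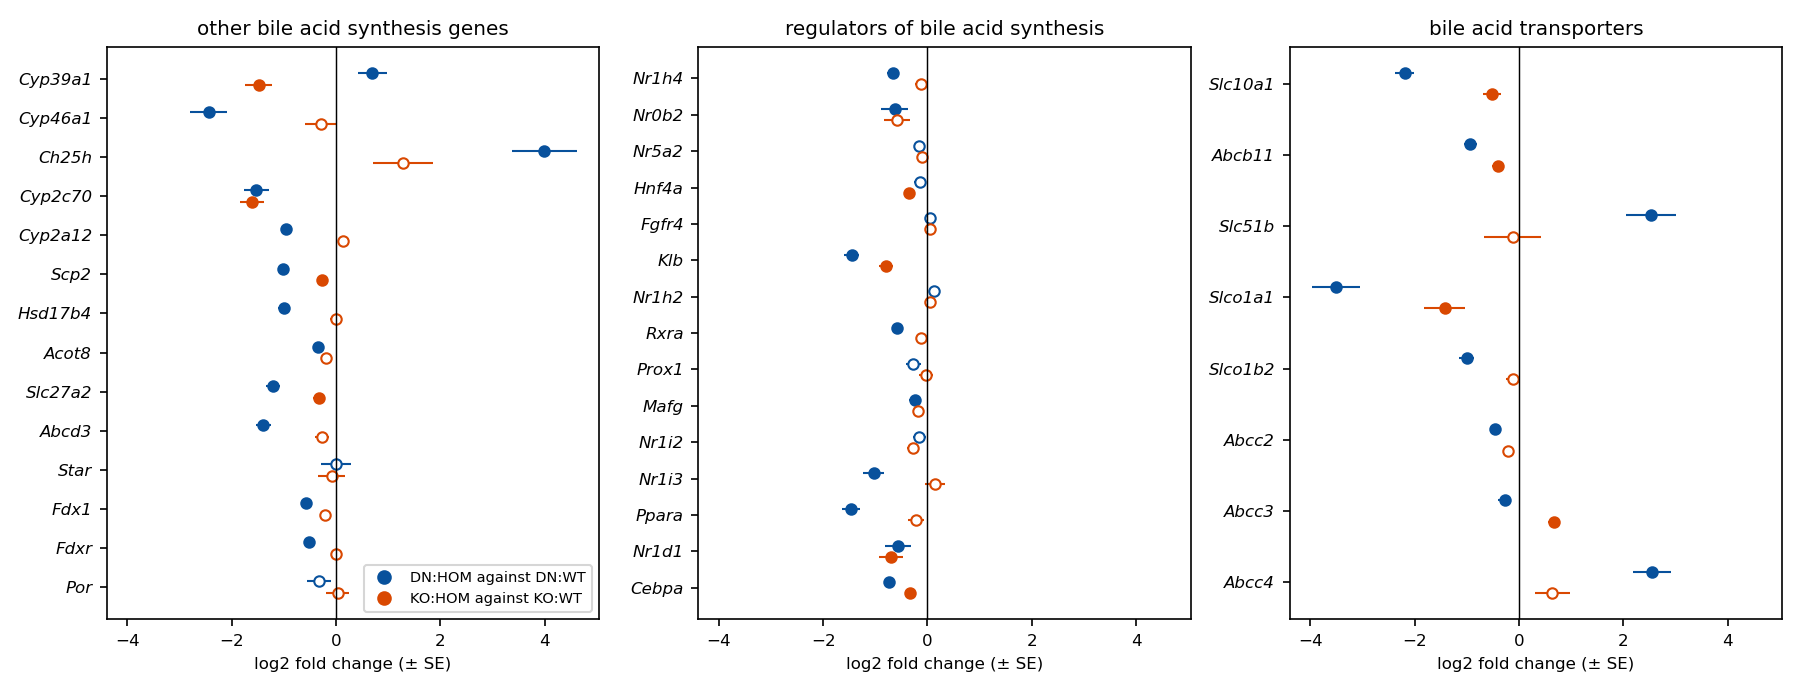
Log2 fold change with its SE (x axis) between homozygous and wild-type livers for further synthesis genes, regulators and transporters in the knock-in (blue) and knockout (orange), over 46 livers. Filled points passed the adjusted p of 0.05, and in the knock-in 10 of 14, 9 of 15 and 6 of 8 genes fell (7, 4 and 4 with libraries scaled by their total alone, when 5 regulators rose).

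Of 15 regulators of bile acid synthesis, 9 fell and 0 rose in DN:HOM livers, with a median of -0.57. With libraries scaled by their total alone 4 fell and 5 rose, with a median of -0.15. That scaling moved the median of all genes from -0.01 to 0.42. The balance of calls in this list thus rests on the scaling, while its median lay below that of all genes in both. Over 48 livers 6 fell, against 25.0% of genes. The bile acid receptor Nr1h4 fell by 0.66, its target Nr0b2, which represses Cyp7a1 and Cyp8b1, by 0.63 (adjusted p = 0.0347, and 0.0971 over 48 livers), and Klb, the co-receptor for the gut hormone that lowers Cyp7a1, by 1.45. Ppara fell by 1.47, Nr1i3 by 1.03, Cebpa by 0.73, Rxra, the partner of LXRα, by 0.59, Nr1d1 by 0.57 and Mafg by 0.25. The activators Hnf4a (-0.15, adjusted p = 0.259) and Nr5a2 (-0.16, adjusted p = 0.0722), whose motifs overlap in the printed Cyp8b1 promoter, did not pass the test by edgeR, nor did Fgfr4 (0.05) or Nr1h2, which encodes LXRβ (0.12). Those that fell in KO:HOM livers were 4 (2 over 48 livers, 1 with libraries scaled by their total alone), Klb by 0.79, Nr1d1 by 0.70, Hnf4a by 0.35 and Cebpa by 0.33. Of all genes tested, 7.87% were called lower in KO:HOM livers (4.12% over 48 livers).

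Of the 8 bile acid transporters tested, 6 fell and 2 rose in DN:HOM livers (5 and 1 over 48 livers, 4 and 2 with libraries scaled by their total alone). Slc10a1, the sodium-dependent uptake carrier, fell from 502 ± 57.9 to 109 ± 40.6 scaled CPM (SD, n = 7 each), a log2 fold change of -2.19 (adjusted p = 1.54e-13, edgeR). The uptake carriers Slco1a1 and Slco1b2 fell by 3.51 and 1 and the canalicular pump Abcb11 by 0.93. The basolateral exporters Abcc4 and Slc51b rose by 2.56 and 2.53, the latter from 0.46 ± 0.33 scaled CPM and not called over 48 livers (adjusted p = 0.0604). The change of Slc51b thus rests on few reads in DN:WT livers. Whether Slc51b passed the filter on low counts only through livers where it is high was not examined. No support is drawn from its call. Abcc3, another basolateral exporter, was among the 6 that fell in DN:HOM livers. In KO:HOM livers, where 7.87% of all genes tested were called lower, Abcc3 rose by 0.68, and Slc10a1 (-0.52), Abcb11 (-0.40) and Slco1a1 (-1.42) fell. Over 48 livers Abcc3 was still called and these 3 were not, and with libraries scaled by their total alone 1 rose and 1 fell.

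Marker genes of several cell types moved with these results. Of 9 hepatocyte markers tested, 7 fell in DN:HOM livers and 5 in KO:HOM livers (2 over 48 livers), and with libraries scaled by their total alone 5 fell and 2 rose in DN:HOM livers and 2 fell in KO:HOM livers. Their summed level ranged from 68073 to 83827 scaled CPM in DN:WT, 37221 to 46178 in DN:HOM, 77012 to 101250 in KO:WT and 56572 to 79680 in KO:HOM livers. All 6 cholangiocyte markers rose in DN:HOM livers, their sum from a range of 30.3 to 70.7 to one of 722 to 1068, and in KO:HOM livers 1 rose (0 over 48 livers, sum 36.6 to 182, beside 24.7 to 101 in KO:WT). Most macrophage markers rose in both studies (8 of 10 in DN:HOM and 7 of 10 in KO:HOM livers, with 2 and 1 lower), and in DN:HET livers 5 rose (0 over 48 livers), with sums of 1183 to 1908 in DN:HOM, 221 to 2537 in DN:HET and 480 to 2377 in KO:HOM livers beside 169 to 326 in DN:WT and 98.6 to 303 in KO:WT livers. Stellate cell markers rose for 7 of 8 in DN:HOM and 5 of 8 in KO:HOM livers (1 over 48 livers). The part of these cells in the members' values was not tested. No marker of these lists was at 0 in every liver of a group.

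To set the members beside hepatocyte RNA within the same liver, each was divided by the geometric mean of the 9 hepatocyte markers, which does not depend on scaling. The mean log2 level of the markers was 11.7 in DN:WT and 11 in DN:HOM livers, and 11.9 in KO:WT and 11.7 in KO:HOM livers. Relative to them, 5 members were lower in DN:HOM livers by two-sided exact permutation tests adjusted over the 20 tests of both studies. These were Cyp8b1 (log2 ratio lower by 2.34), Akr1d1 (1.23), Slc27a5 (0.88) and Cyp27a1 (0.53), each at the smallest p that 7 against 7 livers allow (0.000583, adjusted 0.00233), and Acox2 (0.24, adjusted p = 0.015). Amacr was higher by 0.22 (exact, adjusted p = 0.0173), while its own level fell by 0.47 on the log2 scale. As the markers fell, a gene whose own level did not change would be higher in this ratio. The share of all genes lower or higher relative to the markers is not given. Cyp7a1, lower by 1.53, had an exact adjusted p of 0.0515. Over all 48 livers 3 members stayed below the threshold, Cyp8b1 (1.81), Akr1d1 (0.93) and Slc27a5 (0.63).

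In KO:HOM livers the same ratio was higher for 5 members by the exact test, Cyp8b1 by 0.76 (adjusted p = 0.0173), Amacr by 0.47 (0.0109), Akr1d1 by 0.43 (0.0446), Baat by 0.38 (0.00233) and Slc27a5 by 0.21 (0.0444), and lower for 0. None of these 5 was called higher on its own level in KO:HOM livers (log2 fold changes from -0.06 for Slc27a5 to 0.51 for Cyp8b1), except Amacr with libraries scaled by their total alone (0.30, adjusted p = 0.0287). The mean log2 level of the markers they were divided by was 11.66 ± 0.0860 (SD, n = 8) in KO:HOM and 11.93 ± 0.160 in KO:WT livers. Here too a gene whose own level did not change would be higher in this ratio. The share of all genes that were higher in it is not given. Adjusted together with the tests over all 48 livers, 3 of the 5 members passed. Cyp7a1 was lower by 0.48 (exact, adjusted p = 0.0875).

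**Figure D5:**
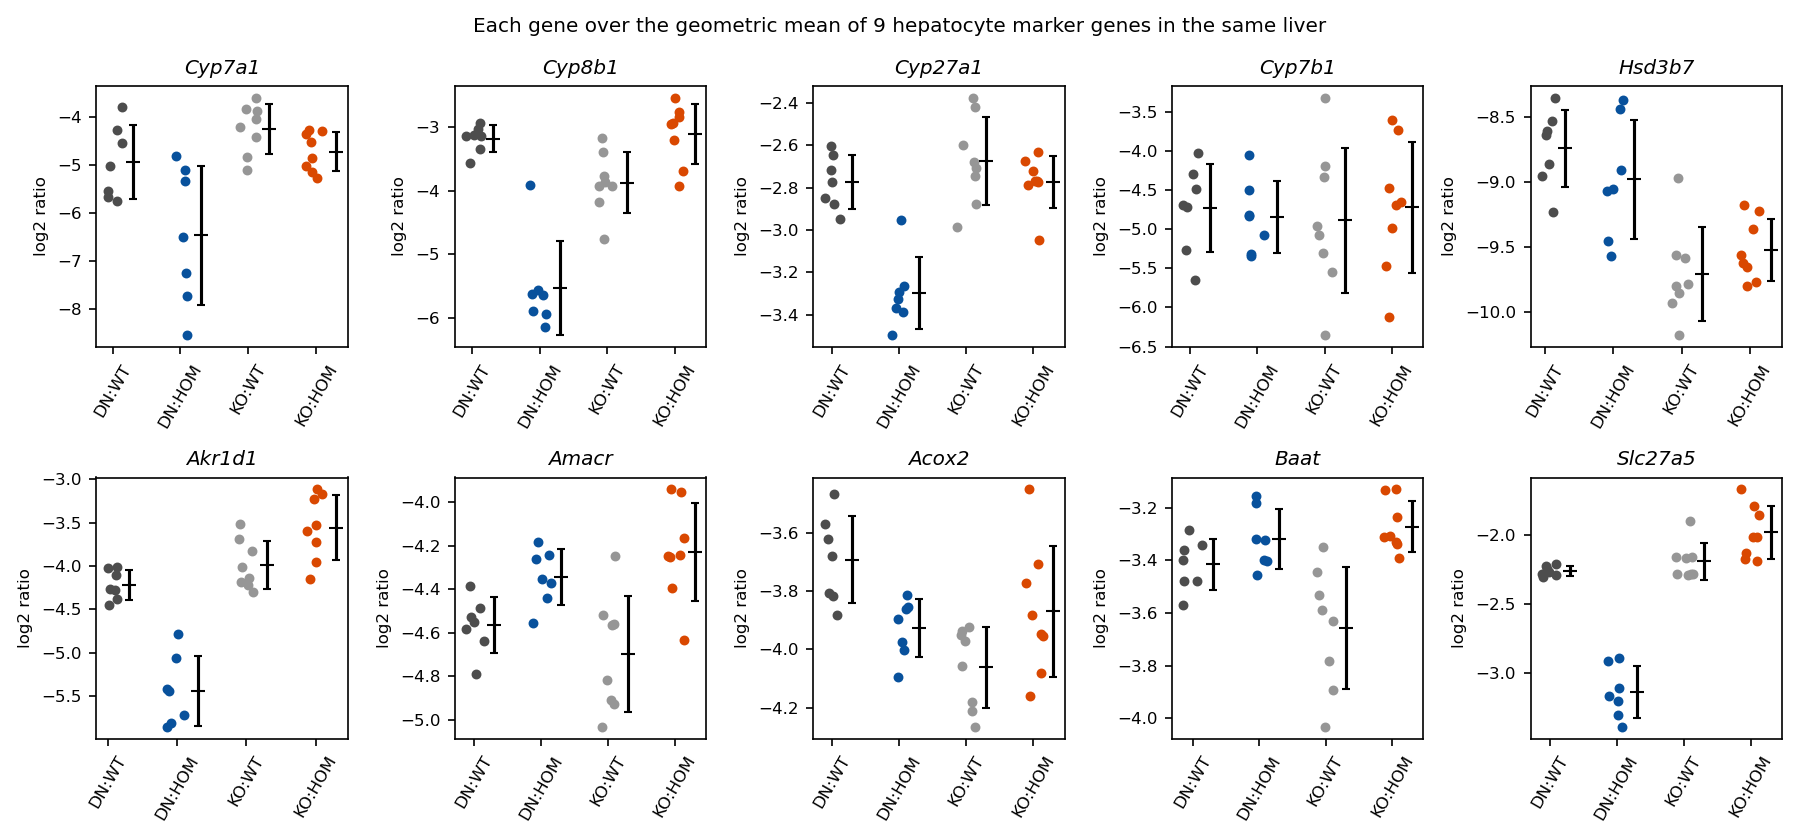
Log2 ratio of each gene to the geometric mean of 9 hepatocyte markers in the same liver (y axis) in wild-type and homozygous livers, with the mean and SD beside the points. Cyp8b1 is at -3.18 in DN:WT and -5.53 in DN:HOM livers on average, and at -3.87 in KO:WT and -3.11 in KO:HOM livers.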

How the data were processed

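Liver poly(A) RNA was sequenced as stranded libraries. The authors aligned reads with STAR 2.5.0a to GRCm39, per the labels' processing notes, and deposited raw counts of reads per gene for both strands and for each strand. The counts of the strand in column 4 were used, 6.97 to 8.62 times those of the other. In each liver 14.2% to 17.5% of counted reads named no gene and stayed out. Symbols and positions came from the GENCODE annotation of GRCm39 for 54749 of 55416 identifiers (98.8%).

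The livers behind the study's bile acid data were found by matching 66 values of 3 genes to the counts (66 matched within 0.001%). The test was that of edgeR 4.0.16, run in R 4.3.3 (filterByExpr, TMM, quasi-likelihood F test, 6 group means, Benjamini-Hochberg over all genes, threshold 0.05), with DESeq2 1.42.0, other scalings, filters and sets of livers as alternatives. Log2 CPM for correlations used a prior count, and exact tests used scipy 1.17.1. On simulated data for the knock-in comparison, 200 genes were changed before the filter on low counts, which left 15410 genes, changed and unchanged. Among these edgeR called 65.3% at a log2 change of 1 and 94.9% at 2, and 6 of 15213 unchanged genes.

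Named genes were the members, Nr1h3, genes of the lists (further synthesis genes, regulators, transporters, clock, sex-biased and cell type marker genes) and the 5 genes most like Cyp7a1, Cyp8b1 and Cyp7b1, of which 1 is not reported here. Prkag3, Gm49388 and 9430064I24Rik are named for their overlap. Members and lists were chosen with earlier results of these data known. The geometric mean of hepatocyte markers and the fits without single livers were chosen after seeing the data. Endothelial and T cell markers are given in the closing section.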

Additional observations from a re-analysis of the deposited data

Results flagged for a closer look

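Among 60 combinations of gene and group, 10 held a liver whose gap to its nearest neighbour was large for the range of its group, where chance gives about 1 in 20. Members vary together within a liver and some livers recur, so the combinations are not independent. Their number can therefore not be set directly against that rate. In DN:HOM livers, animal 33 stood above the others for Cyp8b1 (162 scaled CPM), Cyp27a1 (314) and Cyp7b1 (147). In KO:HET livers, animal 9 stood below the others for Cyp8b1 (49.1), Baat (250.1) and Slc27a5 (667). In DN:HET livers, animal 4 was high for Cyp7a1 (154) and animal 14 for Amacr (183). KO:HOM animal 26 was low for Cyp27a1 (360.0) and KO:WT animal 1 high for Hsd3b7 (7.76).

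The effect of homozygosity differed between the knock-in and the knockout for 8 genes, tested by edgeR as the difference of both log2 fold changes (knock-in minus knockout). It was -3.28 for Cyp8b1, -2.05 for Akr1d1, -1.50 for Slc27a5, -0.85 for Acox2, -0.81 for Cyp27a1, -0.79 for Hsd3b7, -0.69 for Baat and -0.66 for Amacr. Study, institute and mouse line cannot be told apart in these values.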

How the results depend on the processing

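Of 315 values of single genes under the alternatives, 298 kept their direction and their side of the threshold, 11 lost and 4 gained a call, and 2 changed sign, both with libraries scaled by their total alone in the knockout (Acox2 to 0.031 and Slc27a5 to 0.054 on the log2 scale, with no call in either fit). These include the main fit read at a threshold of 0.01, where no value was recomputed (29 kept their side and 2 lost a call). The number of members called lower in DN:HOM livers ranged from 7 (total alone) to 10 (without DN:HOM replicate 33). In KO:HOM livers it was 0 over all 48 livers and at an adjusted p under 0.01, and 2 with each study fitted alone, where Cyp7a1 joined Cyp27a1. With the total alone, the 1 gene called there was Amacr, higher by 0.30, in place of Cyp27a1. For the difference between studies it was 5 over all 48 livers. Between wild-type groups, the number called in either direction was 2 with DESeq2 and 0 with unstranded counts, where Hsd3b7 was not tested. Leaving out the 2 livers under 10000000 reads changed no count, nor did leaving out KO:HET replicate 9 in the comparison of KO:HET with KO:WT, where it was run. Beyond that the cause was not tested. No paired analysis was possible because the animal numbers only name animals, and the groups compared within a study share none. At this depth Hsd3b7 rests on the fewest reads among the members, and Ch25h and Slc51b on fewer still, as does Cyp46a1 in the knock-in study.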

Other observations

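Of 6 endothelial markers, 4 fell and 1 rose in DN:HOM livers (4 and 0 over 48 livers), with a summed level of 72.0 to 131 scaled CPM beside 108 to 150 in DN:WT livers, and 1 fell and 1 rose in KO:HOM livers. With libraries scaled by their total alone 1 fell and 1 rose in DN:HOM livers, so that the balance of calls in this list rests on the scaling. Its median log2 fold change was -0.48 beside -0.01 over all genes, and -0.05 beside 0.42 with the total alone. Of 6 T cell markers, 3 rose in DN:HOM (0 over 48 livers), 4 in DN:HET (2 over 48 livers) and 6 in KO:HOM livers (6 over 48 livers), with summed levels of 3.84 to 7.08 in DN:HOM, 2.84 to 28.1 in DN:HET and 6.92 to 25.3 scaled CPM in KO:HOM livers beside 2.37 to 4.51 in DN:WT and 2.19 to 6.52 in KO:WT livers. The share of all genes called higher is not given. As these sums are low, a marker may have passed the filter on low counts through the groups where it is high. No support is therefore drawn from these T cell counts.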
